A study of Mus musculus with 272 samples.

Results

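*Ctcf* and 9 genes of the cohesin complex were described in the chromatin of mouse muscle stem cells (MuSCs). The 10 genes, *Ctcf*, *Smc1a*, *Smc3*, *Rad21*, *Stag1*, *Stag2*, *Nipbl*, *Wapl*, *Pds5a* and *Pds5b*, were taken by name from the 21938 protein-coding genes of the GENCODE M21 annotation of mm10, and all 10 were found. The study edited the genome of MuSCs in living mice with Cas9 and single or paired guide RNAs, and *Ctcf* was among the transcription factors it targeted. Chromatin was mapped in 8 of its 272 samples, 2 replicate libraries each of ATAC-seq, which reads open chromatin, and of ChIP-seq for 3 histone modifications. H3K4me3 lies at promoters, H3K27ac at promoters and enhancers in use, and H3K27me3 at genes silenced by Polycomb. By the study's methods, MuSCs were sorted as GFP+ cells from hindlimb muscles of Pax7Cas9 mice, in which Cre driven by *Pax7* switches on Cas9 and GFP. The methods for ATAC-seq and ChIP-seq do not name the mice. All 8 libraries are taken here to come from such cells and to carry both. The labels give skeletal muscle as the tissue and neither an age nor a treatment, and nothing states that the 2 replicates came from separate mice, so that their spread may be technical.

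CTCF is a zinc finger protein that binds DNA at a fixed motif and stops cohesin as it extrudes loops of chromatin. The cohesin ring is closed by SMC1A, SMC3 and RAD21, and a STAG protein binds RAD21. NIPBL loads cohesin and drives extrusion, WAPL releases it, and the PDS5 proteins bind the ring and help both its release and its protection. The same ring holds sister chromatids together until division, and it organises enhancer contacts in cells that rarely divide, as resting MuSCs do.

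Each of the 8 libraries was a list of peaks, between 18006 and 140937 of them for the active features and 6080 and 10485 for H3K27me3. The lists hold no read numbers, so the depth is unknown, and a gene without a peak may only have been missed. The value given for a peak is its fold enrichment, the signal at its summit over the local background, and it was compared within a list. All 13 markers of MuSCs had H3K4me3 promoter peaks in both replicates, as did 15 of 30 markers of fibro-adipogenic cells, endothelial cells and myofibres, and 12 of 13 against 7 of 30 had H3K27ac. The part of other cell types in the values below was not tested. With 2 libraries a feature, an exact permutation test of 2 against 2 cannot go below p = 0.333, so no test was made and each value is given in both replicates.

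All 10 genes had promoters with open chromatin and both active marks. Within 3 kb of an annotated start, ATAC-seq, H3K4me3 and H3K27ac peaks were present in both replicates for 10 of 10 genes, and an H3K27me3 peak was present for 0 of 10 in either. Over all protein-coding genes, 67.8% had ATAC-seq peaks in both replicates, 60.8% had H3K4me3, 46.6% had H3K27ac and 4.81% had H3K27me3, and 44.4% had the state of the 10 genes, with the 3 active features in both replicates and H3K27me3 in neither. In the strength of their strongest promoter peak the genes differed from all marked promoters most in H3K27ac. All 10 genes were above the median of all genes with an H3K27ac peak in both replicates, which was 13.88 and 11.95, with medians over the 10 genes of 28.5 and 22.8. For H3K4me3, 9 and 8 of the 10 genes were above the medians of 23.9 and 17.6, and for ATAC-seq 6 and 7 were above 13.3 and 12.2. Openness was thus near that of an ordinary marked promoter in most of the 10 genes, while both histone marks were mostly stronger.

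**Figure D1:**
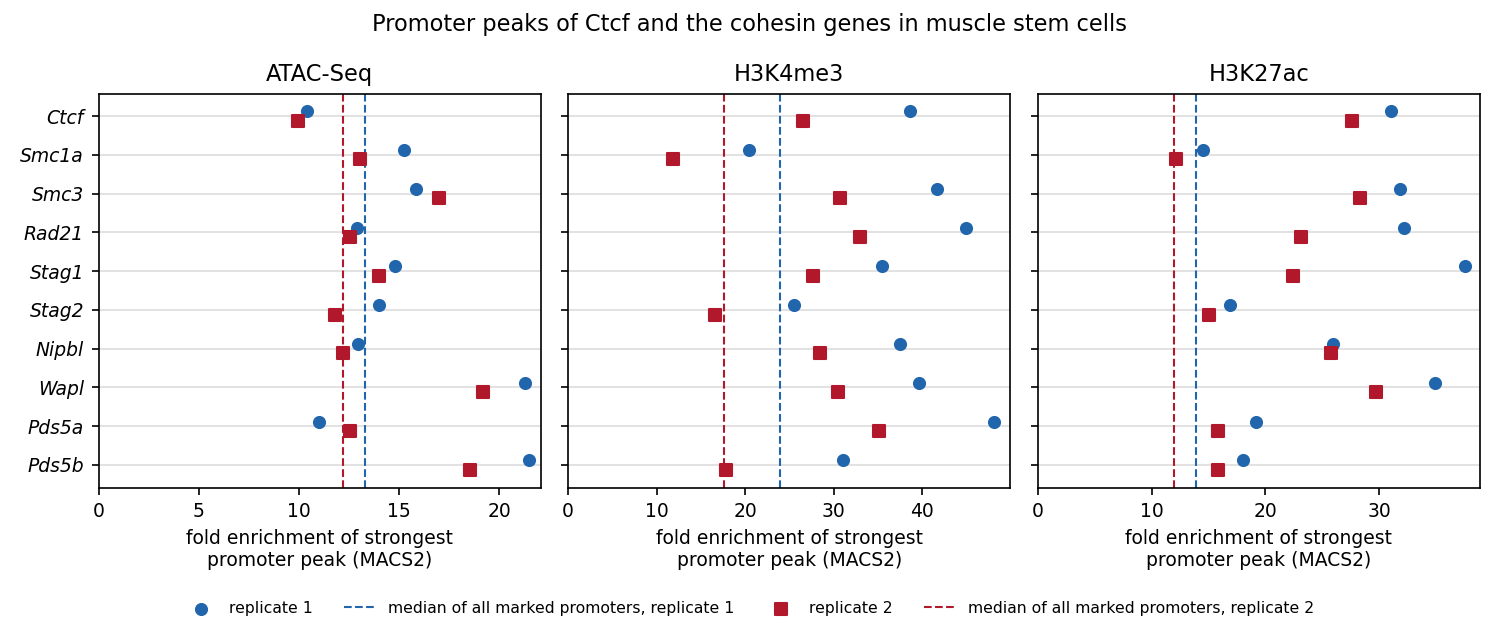
Fold enrichment of the strongest promoter peak of each gene (x axis) in replicate 1 (circles) and replicate 2 (squares), for ATAC-seq, H3K4me3 and H3K27ac, with the median of all marked promoters of each list as a dashed line. All 10 genes lie above the H3K27ac medians of 13.88 and 11.95, whereas *Ctcf* lies below both ATAC-seq medians.

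*Ctcf* lies at chr8:105636568-105682922 on the plus strand. Its strongest promoter ATAC-seq peak had the lowest fold of the 10 genes in both replicates, 10.4 and 9.97. The same peak was among the widest in the genome, at 1116 and 1304 bp, wider than 99% and 99.5% of the strongest promoter peaks. H3K4me3 reached 38.6 and 26.5, and H3K27ac reached 31.04 and 27.58, or the 91.9th and 94.7th percentiles of marked promoters. The *Ctcf* promoter was thus broad and strongly acetylated, with a low ATAC-seq fold over its local background. Its values cannot be given to *Ctcf* alone, because 1 of the 3 transcripts of *Agrp* and both transcripts of the non-coding gene *Gm5914* start on the other strand 458 and 415 bp downstream of the *Ctcf* start at which the ATAC-seq signal lay.

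The 3 genes of the ring did not have like promoters. *Smc3* (chr19:53600398-53645833, plus strand) had ATAC-seq folds of 15.87 and 17, H3K4me3 folds of 41.7 and 30.7 and H3K27ac folds of 31.9 and 28.3. *Rad21* (chr15:51962240-51991747, minus strand), whose protein is the subunit cut to open the ring at anaphase, had 44.96 and 32.96 for H3K4me3, second of the 10 genes in both replicates, and 32.2 and 23.2 for H3K27ac. *Smc1a* (chrX:152016428-152062694, plus strand) had 20.5 and 11.8 for H3K4me3 and 14.6 and 12.1 for H3K27ac. These were the lowest values of the 10 genes for both marks in both replicates, although its ATAC-seq folds of 15.23 and 13.04 were in the middle of the 10. *Smc1a* shares its start region with *Ribc1*, which starts 133 bp upstream on the other strand.

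Of the paralogous *Stag* genes, *Stag1* was the more strongly marked. *Stag1* (chr9:100597798-100959375, plus strand) had H3K4me3 folds of 35.5 and 27.7 and H3K27ac folds of 37.6 and 22.4, the highest H3K27ac value of the 10 genes in replicate 1 and the 6th in replicate 2. *Stag2* (chrX:42149317-42277185, plus strand), which is often mutated in cancers, had 25.5 and 16.6 for H3K4me3 and 16.9 and 15.1 for H3K27ac. *Stag1* was higher than *Stag2* for all 3 active features in both replicates, with the nearest values in ATAC-seq, at 14.78 and 14.02 for *Stag1* and 13.98 and 11.81 for *Stag2*. For H3K4me3, even the lower *Stag1* replicate exceeded the higher *Stag2* replicate. *Stag2* is X-linked, and promoters on the X chromosome had lower folds of both histone marks in general, as given below. The part of the chromosome in this difference was not tested.

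The genes that load and release cohesin were also fully marked. *Nipbl* (chr15:8290617-8444463, minus strand) had H3K4me3 folds of 37.5 and 28.5 and H3K27ac folds of 25.96 and 25.74, with ATAC-seq folds of 12.9 and 12.2, close to the medians of all marked promoters. *Wapl* (chr14:34673928-34747983, plus strand) was high throughout, with ATAC-seq folds of 21.3 and 19.2, H3K4me3 folds of 39.7 and 30.5 and H3K27ac folds of 34.9 and 29.8. It was the first or second of the 10 genes for ATAC-seq and for H3K27ac in each replicate. The non-coding gene *5830448L01Rik*, annotated as a bidirectional promoter transcript, starts 165 bp upstream of *Wapl* on the other strand and shares these peaks.

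The *Pds5* paralogues differed in opposite directions in H3K4me3 and ATAC-seq. *Pds5a* (chr5:65605721-65698273, minus strand) had the highest H3K4me3 of the 10 genes in both replicates, 48.1 and 35.1, and ATAC-seq folds of 10.99 and 12.53. These 2 folds came from different peaks, and its marked start lay between their summits. The replicate 1 peak, with its summit 982 bp downstream of the marked start, covered the annotated start at 65696865. The replicate 2 peak, with its summit upstream, covered the annotated start at 65698273, the 5′ end of the gene record. *Pds5b* (chr5:150673739-150810690, plus strand) had 31 and 17.87 for H3K4me3 and was first or second for ATAC-seq, at 21.5 and 18.5. Each order held in both replicates, and the 2 ranges did not overlap for ATAC-seq, or for H3K4me3. In H3K27ac the paralogues did not differ beyond their spread, at 19.16 and 15.81 for *Pds5a* and 18.01 and 15.81 for *Pds5b*, where the difference was smaller than that between replicates.

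The replicates ordered the genes alike but not on one scale. Of the 45 pairs of the 10 genes, 43 had the same order in both replicates for H3K4me3, 38 for ATAC-seq and 36 for H3K27ac. Folds were higher in replicate 1 for 10 of 10 genes in H3K4me3 and in H3K27ac, with median ratios of 1.37 and 1.16. The same ratios over all genes marked in both replicates were 1.36 and 1.23, so the shift was shared by the whole lists.

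*Smc1a* and *Stag2*, the X-linked genes of the 10, were the lowest for H3K4me3 and H3K27ac in both replicates. Promoters on the X chromosome had lower folds of these marks in general. The median fold of H3K4me3 over X-linked genes marked in both replicates was 13.8 and 9.82, against 24.95 and 17.97 over autosomal genes, and that of H3K27ac was 9.20 and 7.72 against 14.99 and 12.14. For ATAC-seq the X-linked medians of 14.7 and 12.6 were not below the autosomal ones of 13.6 and 12.3. Among the 433 X-linked genes with H3K4me3, *Stag2* was at the 96.8th and 93.1st percentiles and *Smc1a* at the 87.8th and 67.9th. Among the 258 with H3K27ac, they were at the 90.7th and 93.0th, and at the 84.9th and 85.3rd. Low among the 10 genes, both were thus high among X-linked genes.

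**Figure D2:**
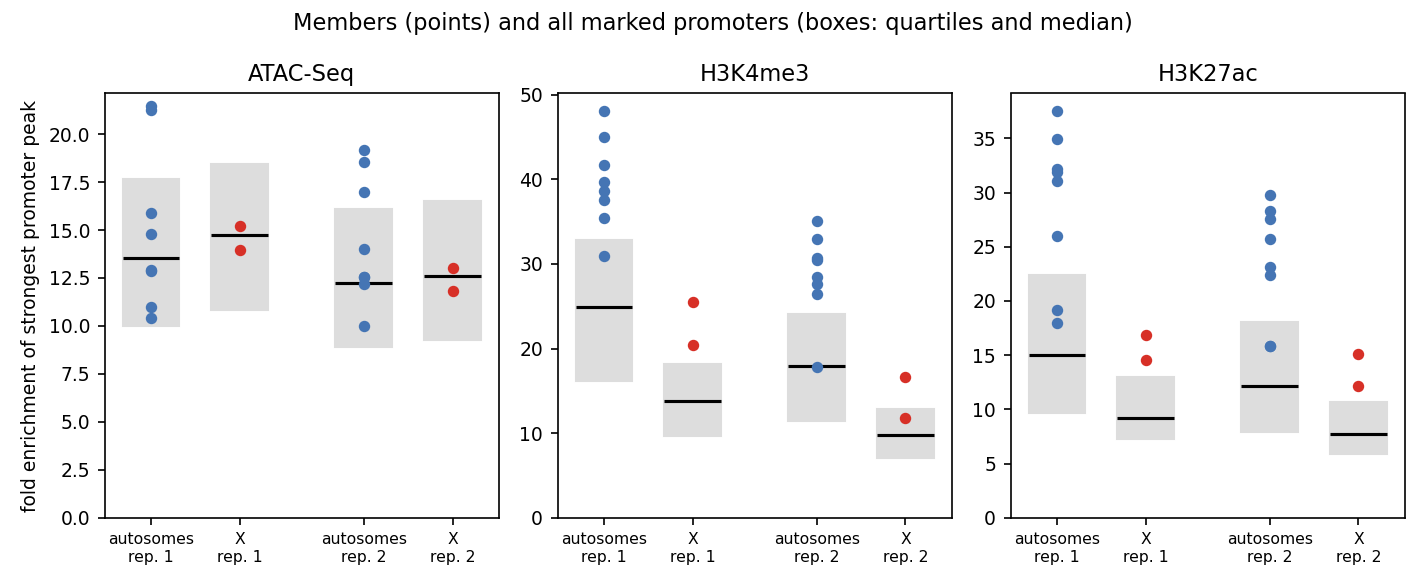
Fold enrichment of the strongest promoter peak (y axis) of the 8 autosomal genes (blue points) and of *Smc1a* and *Stag2* (red points), by replicate, over grey boxes that span the quartiles of all marked promoters on autosomes or on X, with a line at the median. For H3K4me3 and H3K27ac the red points lie above the X medians and below all blue points, and for ATAC-seq they lie beside the X medians of 14.7 and 12.6.

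The H3K4me3 peaks of the 10 genes were wide. Their widths ran from 1655 to 4680 bp in replicate 1 and from 1375 to 4456 bp in replicate 2, with medians of 2632.5 and 2360 bp, against 1615 and 1337.5 bp over all genes with such a peak, and all 10 exceeded these medians in both replicates. *Nipbl* had the widest, 4680 and 4456 bp, which reached 2243 and 2219 bp upstream of its start and 2436 and 2236 bp downstream. That is wider than 98.3% and 99.2% of the strongest promoter peaks, and the *Nipbl* H3K27ac peak of 3415 and 4049 bp was wider than 98.5% and 99.7%. *Stag2* combined a width of 3934 and 3658 bp, above 96.6% and 98.0% of peaks, with a modest fold. Its strongest H3K4me3 peak began downstream of the first annotated start and reached 4001 and 3780 bp into the gene. The 8 annotated starts of *Stag2* lie between 42149317 and 42152180, so this peak also covers later starts of the gene. A weaker peak, with folds of 7.46 and 6.34, lay upstream of the first start. The annotated gene *Gm37564* starts on the other strand 864 bp downstream of the *Stag2* start, within that strongest peak, and *AC137853.1* starts on the other strand 987 bp from the *Smc3* start, on its upstream side. Another gene thus starts within 3 kb of the marked start at 5 of the 10 genes. The share over all protein-coding genes was not counted, so this is not shown to be particular to the 10. The strongest H3K27ac peaks of *Smc1a*, of 856 and 734 bp, and of *Pds5b*, of 1053 and 958 bp, lay almost wholly downstream of the start. Those of *Pds5b* were only slightly below the medians of 1159 and 985.5 bp over all genes with such a peak. *Smc1a* had a further H3K27ac peak upstream of its start in both replicates, with folds of 7.28 and 5.88.

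**Figure D3:**
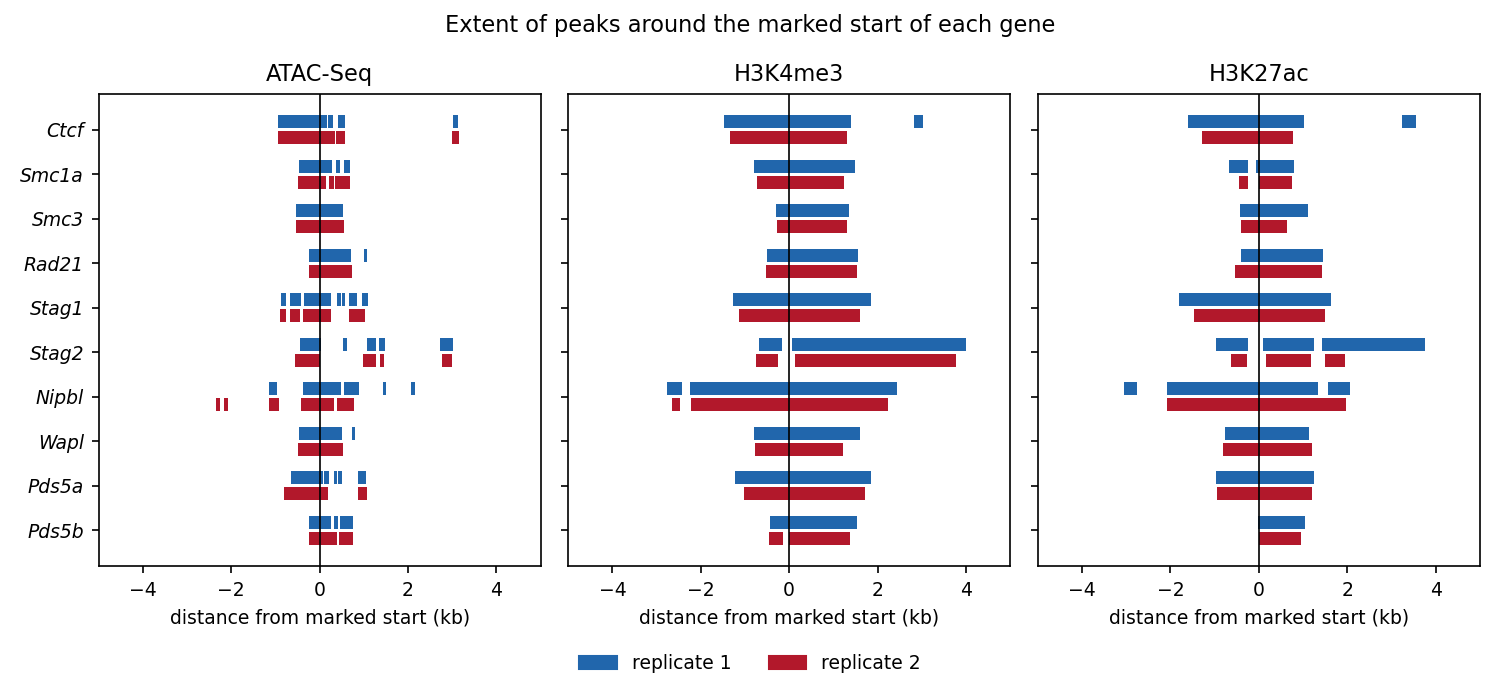
Extent of all peaks within 5 kb of the start at which each gene was marked (x axis, distance in kb, positive in the direction of transcription), for replicate 1 (blue) and replicate 2 (red). H3K4me3 spans the widest stretch at *Nipbl*, 4680 and 4456 bp, and at *Stag2* the strongest peak lies downstream of the start and a weaker one upstream.

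Each gene was marked at a single region of annotated starts. When starts within 6 kb of each other were joined, the 10 genes had 35 groups of starts, and each gene had 1 group that held all 3 active features. Of the 25 other groups, 0 had a peak of any feature in both replicates, and 1, in *Smc3* 35069 bp downstream of its first start, had an ATAC-seq peak in replicate 1 only. In 9 genes the marked group contained the 5′ end of the gene record. *Stag1* was the exception. Its record begins with a single transcript at 100597798, where there was no peak of any feature in either replicate, and the marked group began 45650 bp downstream at 100643448, where 7 of its 14 annotated starts lie. Over all protein-coding genes, 2.57% had H3K4me3 in both replicates at some start but none at the 5′ end of the gene record. Counted only at that 5′ end, *Stag1* would have 0 of the 3 active features, and 9 of 10 genes would be marked. RefSeq starts gave the same picture, with 6 transcripts at 100643448 or 100643575 and no peaks at the starts at 100597709, 100636995 and 100703218. RefSeq also gives *Nipbl* 2 starts more than 20 kb upstream, at 8465310 and 8465315, and neither had a peak of any feature.

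**Figure D4:**
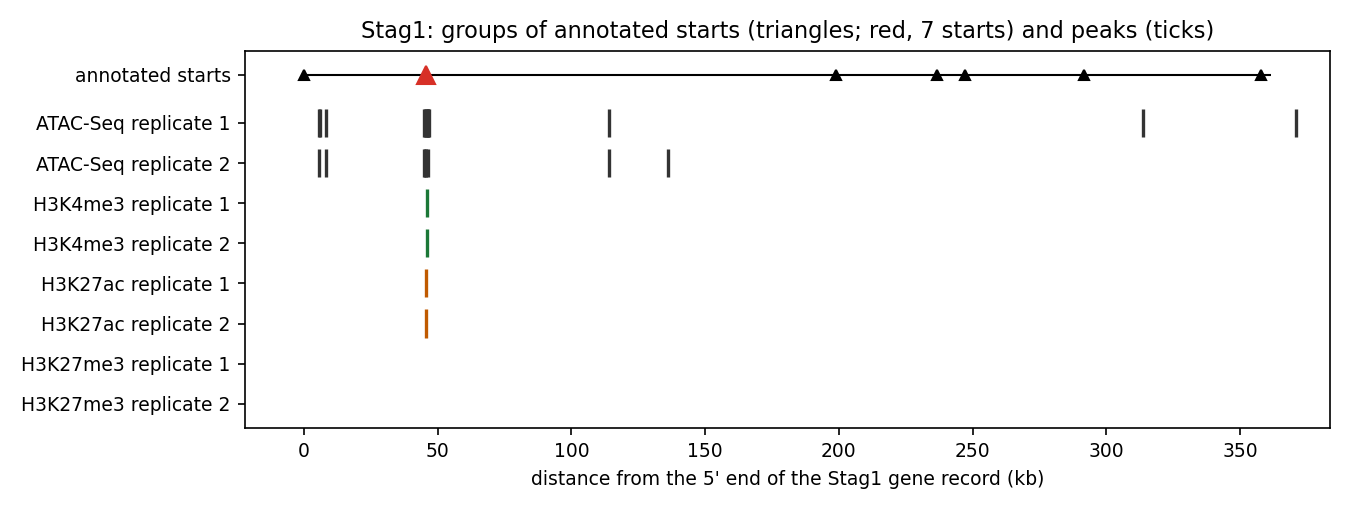
Peaks (ticks) over the *Stag1* gene and 20 kb either side, by library, against the distance in kb from the 5′ end of the gene record (x axis), with groups of annotated starts as triangles. H3K4me3 and H3K27ac occur only at the group of 7 starts (red triangle), 45650 bp from the 5′ end, and H3K27me3 has no peak in the region.

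The promoter sequences were rich in G+C and CpG. RefSeq windows of 300 bases, from 250 before to 50 after the start on GRCm38.p6 (mm10), were held for 7 of the 10 genes and not for *Rad21*, *Stag2* and *Nipbl*. Their G+C content ran from 58.3% in *Smc1a* to 80.3% in *Pds5a*, against a median of 52.7% over 32851 promoters, and their CpG observed over expected ratio from 0.903 to 1.16, against 0.384. *Smc1a* had the lowest content in CpG and the lowest H3K4me3 of the 7 genes, and *Pds5a* had the highest G+C content and the highest H3K4me3. The order was not kept in between, as *Pds5b*, with 75.7% G+C, had lower H3K4me3 than *Smc3*, with 65%. All 300 bases lay inside ATAC-seq peaks of both replicates in all 7 genes. 5 windows are shown in the direction of transcription, with base 251 as the start and with the motifs searched on both strands in capitals, and were chosen as the targeted gene, the *Pds5* pair, the alternative start of *Stag1* and the weakly marked *Smc1a*.
*Ctcf*, chr8:105636288-105636587, plus strand: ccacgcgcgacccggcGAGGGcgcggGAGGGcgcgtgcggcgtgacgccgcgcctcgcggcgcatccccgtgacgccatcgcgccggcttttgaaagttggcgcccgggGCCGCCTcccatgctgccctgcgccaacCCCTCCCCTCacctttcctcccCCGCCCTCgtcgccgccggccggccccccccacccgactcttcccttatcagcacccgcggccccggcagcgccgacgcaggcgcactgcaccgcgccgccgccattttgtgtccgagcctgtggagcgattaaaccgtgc
*Smc1a*, chrX:152016178-152016477, plus strand: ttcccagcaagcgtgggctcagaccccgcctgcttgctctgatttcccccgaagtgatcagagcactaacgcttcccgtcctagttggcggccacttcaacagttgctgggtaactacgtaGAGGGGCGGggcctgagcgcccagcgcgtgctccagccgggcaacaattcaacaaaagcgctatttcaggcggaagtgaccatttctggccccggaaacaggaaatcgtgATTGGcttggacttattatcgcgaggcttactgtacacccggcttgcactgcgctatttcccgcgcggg
*Stag1*, chr9:100643198-100643497, plus strand: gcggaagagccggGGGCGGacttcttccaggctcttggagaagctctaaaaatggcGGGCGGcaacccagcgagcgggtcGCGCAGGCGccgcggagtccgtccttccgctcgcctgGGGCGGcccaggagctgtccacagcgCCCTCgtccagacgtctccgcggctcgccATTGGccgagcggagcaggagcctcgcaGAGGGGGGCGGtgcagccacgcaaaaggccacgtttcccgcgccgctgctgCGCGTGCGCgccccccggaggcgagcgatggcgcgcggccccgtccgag
*Pds5a*, chr5:65698187-65698486, minus strand: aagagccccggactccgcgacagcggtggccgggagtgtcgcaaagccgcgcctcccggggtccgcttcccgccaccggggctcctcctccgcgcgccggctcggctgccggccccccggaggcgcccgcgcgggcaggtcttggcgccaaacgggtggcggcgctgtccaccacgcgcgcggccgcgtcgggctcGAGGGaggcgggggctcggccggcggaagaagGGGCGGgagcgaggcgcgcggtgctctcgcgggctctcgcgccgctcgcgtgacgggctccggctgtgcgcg
*Pds5b*, chr5:150673577-150673876, plus strand: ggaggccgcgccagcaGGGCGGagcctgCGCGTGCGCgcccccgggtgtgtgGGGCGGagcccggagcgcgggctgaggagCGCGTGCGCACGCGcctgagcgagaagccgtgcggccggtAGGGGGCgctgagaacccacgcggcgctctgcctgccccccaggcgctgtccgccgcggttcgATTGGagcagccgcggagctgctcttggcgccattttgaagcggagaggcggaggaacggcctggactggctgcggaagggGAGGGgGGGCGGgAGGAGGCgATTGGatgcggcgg

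The motif shared by all 7 windows was the SP1 box. GGGCGG was found in 7 of 7 windows, against 35.7% of all 32851 promoters, with 4 matches in *Stag1* and 3 in *Pds5b*. The NRF1 motif GCGCANGCG was found in 3 of 7, *Stag1*, *Wapl* and *Pds5b*, against 6.25%, and the 3 matches of *Pds5b* include 2 that overlap. CCAAT was in 4 of 7, against 37.4%, and in *Smc1a* it lay 19 bases before the start. The CTCF core AGGNGGC was in 2 of 7, against 29.4%, with 1 match in *Ctcf* itself, 141 bases before the start, and 2 in *Pds5b*. The shorter core CCCTC was in 6 of 7, against 66.0%, with 5 matches in *Ctcf*, 1 of which overlaps its SP1 box, as does the match in *Smc1a*. The YY1 motif, searched only as AAGATGGC, and the CRE motif, spelled TGACGTCA, were in 0 of 7 windows, against 2.75% and 1.79% of promoters. Other spellings of these motifs were not searched. The ETS motif CCGGAAG was in 0 of 7 against 8.86%, the TATA box TATAAA in 0 of 7 against 13.6%, and the E-box of myogenic factors, CAGCTG, in 0 of 7 against 16.3%. All 7 windows were above the 52.7% median G+C of these promoters, and promoters of like G+C were not compared. The differences in share are thus not shown to go beyond base content. A match or its absence is a statement about letters in this window only.

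Peaks were also counted beyond the promoters. In the 10 genes and 20 kb either side there were 104 and 66 ATAC-seq peaks, 40 and 26 of them at the genes' own promoters. H3K4me3 had 19 and 19 peaks, 13 of them at own promoters in each replicate, and H3K27ac had 27 and 20, with 15 and 13. H3K27me3 had 1 and 0, a peak of fold 3.002 in replicate 1 in the body of *Ube2k* near *Pds5a*. Its −log10 q was only 0.0394, so the peak is not significant. Per 100 kb of these stretches, ATAC-seq peaks ran from 3.24 at *Stag1* to 18.5 at *Ctcf* in replicate 1 and from 1.99 to 15.1 at the same genes in replicate 2, against medians over protein-coding genes of 8.65 and 6.02. *Ctcf* lay at the 81.9th and 84.2nd percentiles. Of its 16 and 13 peaks, only 4 and 3 were at its own promoter. The other 12 and 10 were at promoters of other genes or in the body of *Agrp*. Of the members' ATAC-seq peaks, 72.1% and 89.4% were found in the other replicate, against 62.9% and 84.7% of the whole lists, and for H3K27ac the shares were 70.4% and 90.0% against 64.6% and 91.0%. Some of the peaks outside the genes' own promoters lay at neighbouring promoters. That of *N4bp2l2* upstream of *Pds5b* had ATAC-seq folds of 26.98 and 26.75 and H3K4me3 folds of 27.7 and 17.5. H3K4me3 folds were 12.9 and 9.42 at *Hsd17b10* upstream of *Smc1a*, and 21.5 and 13.2 at *Acd* and *Pard6a* downstream of *Ctcf*.

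Away from all GENCODE promoters, 17 open elements were present in both replicates, where peaks up to 1000 bp apart count as 1 element. Of the 17, 2 had H3K27ac in both replicates, against 7.55% of 36827 such elements genome-wide, and both lay at *Nipbl*. Another 13 had no overlapping histone peak in either replicate. The genome-wide share of such unmarked elements was not counted, so this is not shown to be particular to these loci. The first was 6.86 kb upstream of the *Nipbl* start (chr15:8451186-8451378), with ATAC-seq folds of 12.8 and 13.5, H3K27ac folds of 7.24 and 5.11, and no H3K4me3. Its ATAC-seq folds, each over the local background, were close to the 12.9 and 12.2 of the *Nipbl* promoter. Its −log10 q of 38.9 and 48.2 was below the promoter's 146.5 and 122.2. The second was 164 kb downstream of the start and beyond the 3′ end of the gene (chr15:8279329-8280573), with ATAC-seq folds of 8.44 and 7.76, H3K27ac folds of 10.7 and 13.2 and H3K4me3 folds of 17.2 and 16.8. GENCODE M21 has no start within 32.2 kb of it, whereas in RefSeq the non-coding gene *Gm52208* starts inside it, at 8279844 on the minus strand. By the RefSeq annotation the second element is a promoter, and 4 of the 17 elements lay within 3 kb of a RefSeq start. The genome-wide share near a RefSeq start was not counted.

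**Figure D5:**
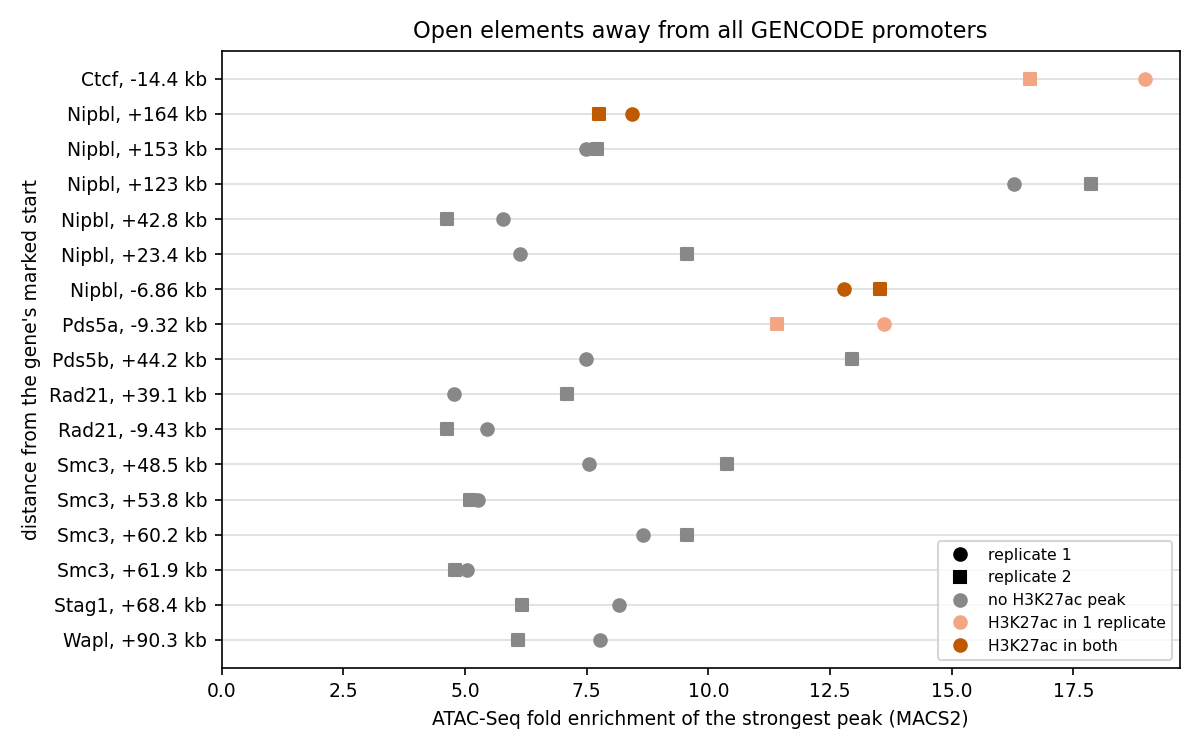
ATAC-seq fold enrichment of the strongest peak (x axis) in replicate 1 (circles) and replicate 2 (squares) for the 17 open elements away from GENCODE promoters, named by gene and by distance from its start in kb (y axis), and coloured by H3K27ac. The strongest lie at *Ctcf*, 18.97 and 16.62, and in an intron of *Nipbl*, 16.29 and 17.86, and only 2 elements, both of *Nipbl*, have H3K27ac in both replicates.

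Other open elements had H3K27ac in 1 replicate or in neither. An element 14.4 kb upstream of *Ctcf* (chr8:105622371-105623430), within the annotated body of *Agrp*, had folds of 18.97 and 16.62, well above the 10.4 and 9.97 of the *Ctcf* promoter, and H3K27ac in replicate 1 only, at 4.98, between the 2 ATAC-seq peaks that make up the element. An element in an intron of *Nipbl* (chr15:8321477-8321863) had 16.3 and 17.9 and no overlapping histone peak, with an H3K27ac peak of fold 3.45 beside it in replicate 1 only. The *Pds5a* element 9.32 kb upstream (chr5:65707109-65707290) had 13.6 and 11.4, with H3K27ac in replicate 2 only, at 3.81, and the *Pds5b* intron element 44.2 kb downstream had 7.49 and 12.9 with no overlapping histone peak. The 101 bases around the summit of the *Ctcf* element (chr8:105622505-105622605) are shown because they hold a match to the CTCF consensus of 12 letters, in capitals, on the plus strand.
*Ctcf* upstream element: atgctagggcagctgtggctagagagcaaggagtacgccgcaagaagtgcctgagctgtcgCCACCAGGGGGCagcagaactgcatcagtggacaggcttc
Over the 101 bases around each summit, the same consensus was found in 1 of the 25 replicate 1 peaks that make up the 17 elements, or 4.00%, against 3.92% of all 48588 open peaks away from promoters. The core AGGNGGC, which the consensus contains in part of its forms, was found in 5 of these 25 windows, or 20.0%, against 11.1%.

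Peaks in a single replicate included a very strong one. An ATAC-seq peak 325 kb downstream of the marked *Stag1* start, beyond the gene, had a fold of 28.3 in replicate 1, the highest of any ATAC-seq peak of these loci, and was missing from replicate 2. Of the 2644 peaks of replicate 1 that reach this fold, 2361, or 89.3%, were missing from replicate 2. With this one, 29 ATAC-seq peaks of these loci were found in replicate 1 alone, with a median fold of 4.11, and the 7 found in replicate 2 alone reached at most 5.11. The reason for such peaks was not tested.

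The other genes of the pathway were mostly marked as well, apart from those of the germline. Of 32 further genes, 29 had ATAC-seq peaks in both replicates, 28 had H3K4me3, 26 had H3K27ac and 0 had H3K27me3. All 10 genes of the condensin and SMC5/6 complexes and all 6 other factors of chromatin architecture had the 3 active features. *Yy1*, a factor that bridges promoters and enhancers, had the highest H3K27ac by its lower replicate, 43.3 and 33.1. Of 11 partners and regulators of cohesin, all had ATAC-seq and H3K4me3 and 10 had H3K27ac, with *Espl1*, which encodes the protease separase, at 5.37 in replicate 1 and without a peak in replicate 2. Their H3K27ac folds were often below the lowest of the 10 genes, the 14.56 and 12.14 of *Smc1a*. Those lay near the middle of marked promoters, at the 52.8th and 51.4th percentiles. Of the 11 partners and regulators, 8 lay below these values in both replicates, among them *Esco2*, an acetyltransferase for SMC3, with 7.79 and 7.83, and *Cdca5*, which encodes sororin, with 9.87 and 7.23. *Mau2*, the partner of NIPBL, did not, with 24.5 and 19.1. Of the 10 genes of other SMC complexes, 5 lay below both values. The share of all protein-coding genes below both values was not counted, so neither count is shown to be particular to its group.

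The 5 meiotic or germline paralogues were mostly unmarked. *Rad21l* and *Ctcfl*, the paralogues of *Rad21* and *Ctcf*, had no promoter peak of any feature in either replicate. *Smc1b* had ATAC-seq in replicate 1 only, at 5.79, and *Rec8* had weak ATAC-seq peaks of 3.82 and 3.96 and no histone peak. *Stag3* differed, with ATAC-seq folds of 20.3 and 15.9 and H3K4me3 folds of 10.8 and 6.83, but no H3K27ac. H3K27me3 was present at 0 of the 5 in both replicates, so the unmarked paralogues carried no peak of the repressive mark either.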

How the data were processed

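The 8 peak lists came from ATAC-seq and ChIP-seq of MuSCs, with 2 replicates of each feature. According to the study's methods, the authors trimmed reads (Trim Galore 0.6.10), aligned them to mm10 (BWA 0.7.17-r1188), filtered them for mapping quality, duplication and blacklisted regions, shifted ATAC-seq reads by the Tn5 offset, and called peaks per library (MACS2 2.2.6). The deposited columns are the authors' score, fold enrichment (a ratio to local background) and −log10 p-value and q-value. H3K27me3 lists include peaks with a −log10 q near 0. The depth is unknown.

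Peaks on the 21 assembled chromosomes were overlapped (at least 1 bp) with 3 kb either side of every GENCODE M21 start, and with each gene and 20 kb either side. A gene counted as marked with a peak in both replicates. The marked start is the annotated start nearest the mean position of the strongest promoter ATAC-seq summits of the 2 replicates. Members and lists were chosen with earlier results of these data known. The genes named are the 10 members, other pathway genes without H3K4me3 in both replicates or with the highest H3K27ac, and neighbours whose promoters hold a counted peak. *Espl1*, *Esco2*, *Cdca5*, *Mau2*, *Stag3*, *Gm52208* and *Ube2k*, and the peaks in 1 replicate, were chosen after their values were seen, as were the RefSeq starts, the joining of elements and the CTCF consensus. Sequences came from RefSeq, and 165 of 165 promoters read back from the genome were equal. No replicate test was made. The planned comparison of paralogous proteins was not made. The overlap counts were checked on simulated intervals. Python 3.11.15, numpy 2.4.6, pandas 2.3.3 and matplotlib 3.10.9 were used.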

Additional observations from a re-analysis of the deposited data

How the results depend on the processing

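The counts of marked members were 10 of 10 for the 3 active features and 0 for H3K27me3 with promoters of 1 kb, with a minimum −log10 q of 5, with 50% of a peak inside the window, with protein-coding starts only, with RefSeq starts, and without either replicate. Counted only at the 5′ end of the gene record they were 9 of 10, as *Stag1* then has no value. All 30 folds of single members, or 27 at that 5′ end, moved by less than the spread between replicates under the alternatives that kept both replicates. With 2 values, leaving out either cannot move the mean beyond that spread. The mean number of H3K27me3 peaks per replicate in the members' loci, 0.5, became 0 with that minimum and 0 with flanks of 10 kb, and ranged from 0 to 1 without either replicate. Counts of peaks of the active features, their shares found in both replicates and counts of other pathway genes stayed within 1.5 times under every alternative tried for them. The peak near *Pds5a* is 1 peak of 1 library with a −log10 q near 0, so it does not establish H3K27me3 there. No paired analysis was possible because no result comes from a test. The unknown depth limits every statement that a peak was missing.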
